A study of Mus musculus with 12 samples.

Results

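The genes described here are those named as nuclear-encoded subunits of the respiratory chain and of ATP synthase. They were taken by name from the protein-coding symbols of the expression table: those beginning with Ndufa, Ndufb, Ndufc, Ndufs or Ndufv and a number, Sdha to Sdhd, and those beginning with Uqcr, with Cox and a subunit number, or with Atp5. A total of 84 of 34303 gene symbols met the rule, and no measured value entered it. As grouped here they comprised 35 genes of complex I, 4 of complex II, 8 of complex III, 19 of complex IV and 18 of ATP synthase (complex V). A name does not settle the role: the GENCODE M21 annotation lists Atp5sl as Dmac2 and Atp5l-ps1 as a processed pseudogene. Both were kept with complex V. Ndufa4 and Ndufa4l2 were placed with complex IV, where the Ndufa4 protein is now assigned. Of the 84, 81 reached 1 FPKM (fragments per kilobase, corrected for library size) in at least 2 of 12 libraries and were tested. The other 3, Cox7b2, Cox8c and Atp5l-ps1, were listed at 0 in every library, and Cox4i1 was not analysed here.

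RNA sequencing was performed on 12 libraries from C57Bl6 mice. TAp63-/- mice lack the TA isoforms of the transcription factor p63, those with a full transactivation domain. Cutaneous squamous cell carcinomas (cSCC) were taken from TAp63-/- mice (n = 4) and wild-type (WT) mice (n = 2) aged over 35 weeks, after chronic UVR, given 3 times a week at 2.5 kJ/m2. Dorsal skin was taken from untreated TAp63-/- mice (n = 3) and WT mice (n = 3) aged 4 weeks. Tumour and skin libraries therefore differed in age and irradiation as well as in tissue, and these cannot be told apart. Each library's title carries a number of its own, but the labels do not say that these are animals, so p-values measure the spread between samples.

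The respiratory chain sits in the inner mitochondrial membrane. Complexes I and II pass electrons from NADH and succinate to ubiquinone, complex III hands them to cytochrome c, and complex IV transfers them to oxygen, while ATP synthase uses the resulting proton gradient. Several complex IV subunits have tissue isoforms. Cox6a2, Cox7a1 and Cox8b are known as the forms of striated muscle and heart, and Cox6a1, Cox7a2 and Cox8a as those found in most tissues. The former are called muscle isoforms below, a name that does not limit them to muscle.

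Some properties of the libraries bear on every result below. Trp63 at the level of the whole gene ranged from 108.5 to 257.8 FPKM in TAp63-/- tumours, 97.3 to 141.4 FPKM in WT tumours, 84.5 to 111 FPKM in TAp63-/- skin and 100.4 to 119 FPKM in WT skin. That value also counts the isoforms that TAp63-/- mice keep, so it does not check the genotype. Keratinocyte markers were present in all libraries, and none of 10 was listed at 0. Xist and Y-linked genes showed 5 tumours to be female, while TAp63-/- tumour replicate 1 and all 6 skin libraries were male. The 12 columns shared 1 distribution of values, read depth was unknown, and a listed 0 did not show absence, since 4 genes of the mitochondrial genome, which all cells use, were listed at 0 in 3 or more libraries.

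The subunit genes as a group were lower in tumours than in skin of either genotype, and none was called higher. In TAp63-/- tumours 24 of 81 were lower than in TAp63-/- skin (29.6%), against 14.2% of all 14752 genes tested, and 0 were higher, against 13% of all genes (27.2% in either direction). In WT tumours 11 of 81 were lower than in WT skin (13.6%), against 6.77% of all genes, and 0 were higher, against 4.66% (11.4% in either direction). The median log2 change of the 81 was -0.38 in TAp63-/- mice and -0.41 in WT mice, where all tested genes had medians of 0.10 and 0.04. Negative changes were found for 69 of 81 in TAp63-/- mice and 77 of 81 in WT mice. Both values depended on the model: with sex as a covariate, a term that rests on the 1 male tumour, the medians were -0.093 in TAp63-/- mice and -0.090 in WT mice, where all genes had 0.058 and 0.020, and 34 and 33 members had positive changes. These are bulk tissues, so fewer cells of a type and less RNA per cell cannot be told apart.

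All 11 genes lower in WT tumours were among the 24 lower in TAp63-/- tumours: Ndufa6, Ndufb4, Ndufb5 and Ndufv2 of complex I, Sdhb of complex II, Cox6a2, Cox6b2, Cox7a1, Cox7a2l and Cox8b of complex IV, and Atp5c1 of complex V. These were 100% of the calls in WT mice and 45.8% of the calls in TAp63-/- mice. The comparisons share no library, but they were fitted together. The same overlap was not counted over all called genes, so it cannot be called particular to the subunits. For 23 of 81 members (28.4%) all 6 tumours were below all 6 skin libraries, against 10.9% of all genes tested, and for 0 of 81 were all tumours above, against 11% of all genes.

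**Figure D1:**
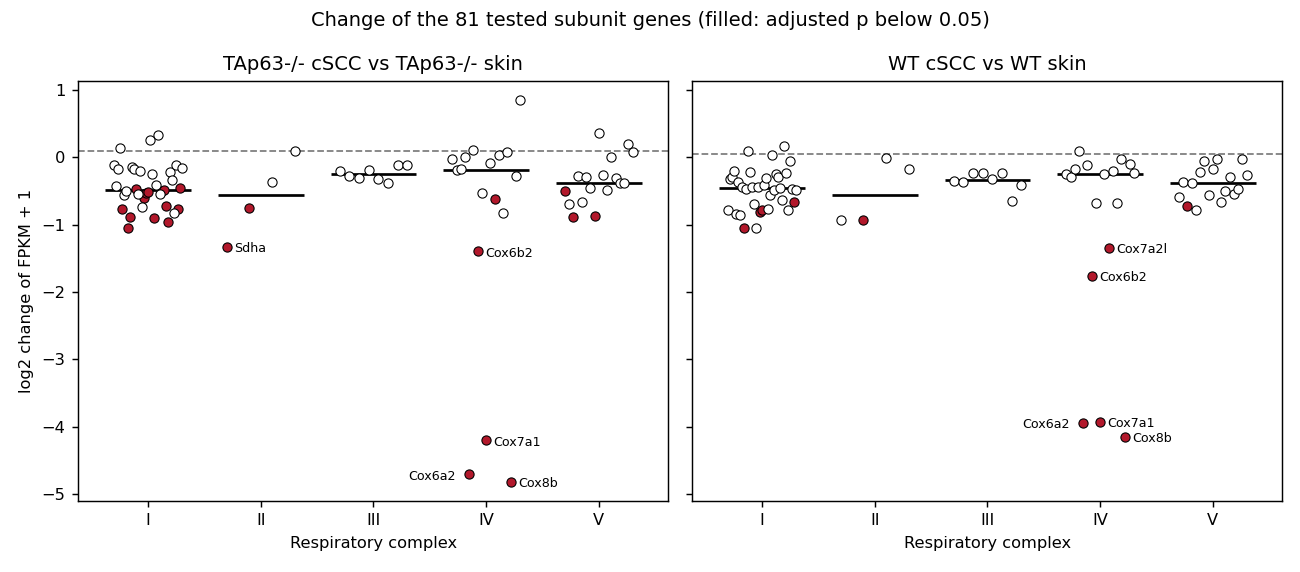
Change of each of the 81 tested subunit genes on the log2(FPKM + 1) scale, by complex, in TAp63-/- tumours against TAp63-/- skin (left) and WT tumours against WT skin (right). Filled points had an adjusted p below 0.05, black bars are medians of a complex and the dashed line is the median of all genes tested; 3 genes of complex IV lie near -4 or below and complex III has no filled point.

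The group level was lower in each tumour genotype. The median over the 81 genes was 99.2, 79.5, 86.9 and 83.1 FPKM in TAp63-/- tumours, 80.2 and 89.8 FPKM in WT tumours, 110.5, 132 and 116 FPKM in TAp63-/- skin and 139, 145 and 117 FPKM in WT skin. The highest tumour lay below the lowest skin library. The summed share of all FPKM was 1.11% to 1.73% in tumours and 1.81% to 2.10% in skin.

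The tumours differed in how many members fell outside the skin range. TAp63-/- tumour replicate 2 had 68 of 81 members below all 6 skin libraries, replicate 4 had 61, replicate 3 had 44 and replicate 1 had 36. WT tumour replicates 1 and 2 had 52 and 51. Among all tested genes the share below all skin libraries was 28.6% to 32.3% per tumour, where the members reached 44.4% to 84%. TAp63-/- tumour replicate 1, the male tumour, had 12 members above all skin libraries (14.8%, against 37.4% of all tested genes). TAp63-/- tumour replicate 3 had 8 (9.88%, against 41.3%). The other 4 tumours had 1 or 2, against 27.8% to 38.9% of all tested genes.

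The calls depended on single libraries. Of the 24 in TAp63-/- mice, 6 kept an adjusted p below 0.05 when each of 7 libraries was left out in turn: Ndufb8, Ndufv1, Cox6a2, Cox7a1, Cox8b and Atp5c1. The number of members called was 11, 13 and 11 without TAp63-/- skin replicates 1, 2 and 3, and 11 when TAp63-/- libraries were fitted alone. Of the 11 in WT mice, Cox7a2l alone kept its call without each of 5 libraries, and the number called was 1 without WT tumour replicate 1 and 4, 3 and 4 without WT skin replicates 1, 2 and 3. With sex as a covariate 5 members were called in TAp63-/- mice, among them Ndufv1, Cox7a1, Cox8b and Atp5c1, and 0 in WT mice.

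Complex IV had 5 of 17 tested members lower in each genotype (29.4%, against 14.2% of all genes in TAp63-/- mice and 6.77% in WT mice). It held the widest spread of changes, and its muscle isoforms stood apart from the rest. Cox6a2 is the striated muscle and heart form of subunit VIa (ENSMUSG00000030785, chr7:128205436-128206366, minus strand, mm10). It had 44.9, 14.8, 3.67 and 4.64 FPKM in TAp63-/- tumours and 10.1 and 55.4 FPKM in WT tumours, against 415, 260 and 263 FPKM in TAp63-/- skin and 361, 413 and 375 FPKM in WT skin. The groups were far apart, with the highest tumour well below the lowest skin library. The log2 change was -4.70 ± 0.74 in TAp63-/- mice (SE, adjusted p = 0.00105) and -3.94 ± 0.88 in WT mice (SE, adjusted p = 0.0174).

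Cox7a1, the striated muscle and heart form of subunit VIIa (ENSMUSG00000074218, chr7:30184171-30186028, plus strand), had 13.2, 6.59, 3.71 and 1.14 FPKM in TAp63-/- tumours and 3.36 and 11.9 FPKM in WT tumours, against 136, 85.2 and 98.6 FPKM in TAp63-/- skin and 101, 122 and 119 FPKM in WT skin. Its log2 change was -4.20 ± 0.55 in TAp63-/- mice (SE, adjusted p = 0.000348) and -3.93 ± 0.66 in WT mice (SE, adjusted p = 0.00462). Cox8b, the striated muscle and heart form of subunit VIII (ENSMUSG00000025488, chr7:140898943-140900446, minus strand), had 17.6, 6.69, 5.36 and 2.23 FPKM in TAp63-/- tumours and 4.95 and 31.1 FPKM in WT tumours, against 215, 234 and 174 FPKM in TAp63-/- skin and 232, 301 and 209 FPKM in WT skin. Its log2 change was -4.82 ± 0.60 in TAp63-/- mice (SE, adjusted p = 0.000235) and -4.15 ± 0.71 in WT mice (SE, adjusted p = 0.00498). Neither gene overlapped between tumours and skin. Without WT tumour replicate 1 the WT changes were -3.15 for Cox7a1, -2.94 for Cox8b and -2.77 for Cox6a2, with adjusted p of 0.0622, 0.0569 and 0.179. With sex as a covariate the changes in TAp63-/- mice were -2.74 for Cox6a2 (adjusted p = 0.0566), -2.89 for Cox7a1 (0.0221) and -3.48 for Cox8b (0.0169). In WT mice they were -1.32 for Cox6a2, -2.19 for Cox7a1 and -2.37 for Cox8b (adjusted p = 0.541, 0.214 and 0.226).

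The forms found in most tissues did not pass the test. Cox6a1 averaged 329 ± 83.0 FPKM in TAp63-/- tumours (SD, n = 4) and 329 ± 92.4 FPKM in TAp63-/- skin (SD, n = 3), a log2 change of 0.00 ± 0.27 (SE, adjusted p = 0.997). Cox7a2 changed by -0.09 ± 0.34 (SE, adjusted p = 0.865) and Cox8a by 0.07 ± 0.20 (SE, adjusted p = 0.812) in TAp63-/- mice. In WT mice the values were 0.09 ± 0.32, -0.25 ± 0.40 and -0.03 ± 0.23 for Cox6a1, Cox7a2 and Cox8a (SE, adjusted p = 0.882, 0.735 and 0.960). Tumours and skin overlapped for each of the 3.

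The muscle forms were low relative to their partners in tumours. Cox6a2 was at 0.977% to 13.4% of Cox6a1 in tumours, against 64.3% to 118% in skin. Cox7a1 was at 1.51% to 14.1% of Cox7a2 in tumours, against 76.9% to 174.5% in skin, and Cox8b was at 0.892% to 8.13% of Cox8a in tumours, against 50.2% to 88.6% in skin. FPKM are per length, so the 2 genes of a pair can be set side by side. The difference within a pair fell by 4.46, 3.95 and 4.59 on the log2 scale in 6 tumours relative to 6 skin libraries. Each reached p = 0.00217 in a two-sided exact permutation test, the smallest this design can give, or 0.00433 after Benjamini-Hochberg adjustment over 8 pairs.

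**Figure D2:**
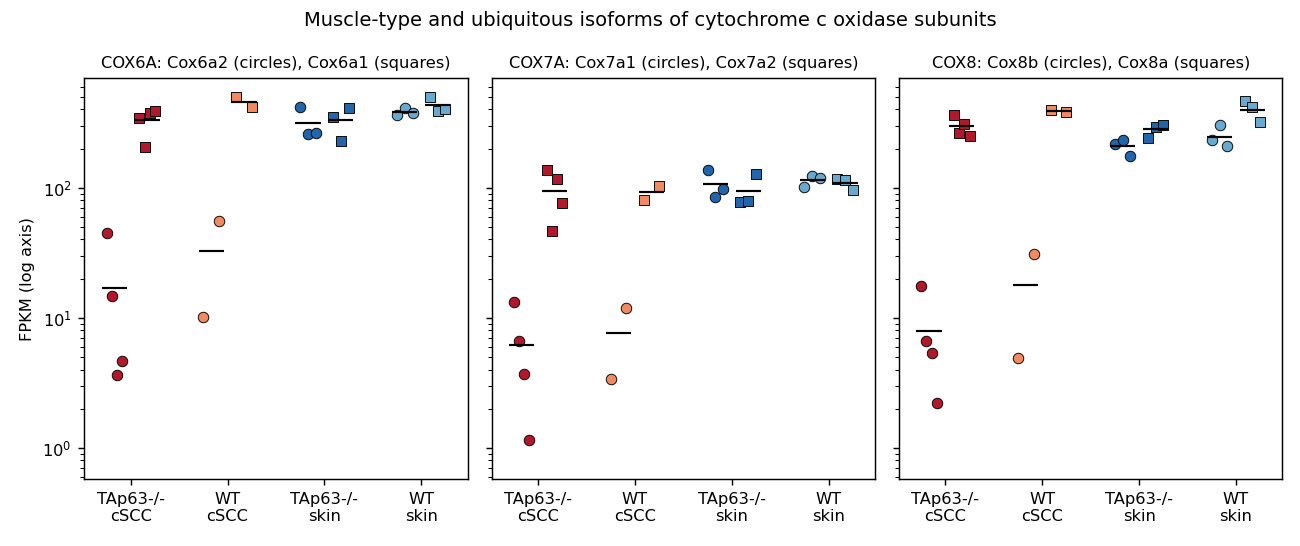
FPKM (log axis) of the muscle isoform (circles) and the widely expressed isoform (squares) of 3 subunits of cytochrome c oxidase in each library, by group, with group means as bars. The muscle isoforms of tumours lie at 1.14 to 55.4 FPKM and those of skin at 85.2 to 415 FPKM, whereas the squares of tumours and skin overlap.

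Promoters are shown for 2 of these pairs because the genes of a pair encode alternative forms of 1 subunit and differed in level. Each runs from 250 bases before to 50 bases after the transcription start, from RefSeq on GRCm38.p6, 5′ to 3′ on the gene's strand. Cox7a1 is at chr7:30183921-30184220 (plus strand), Cox7a2 at chr9:79759804-79760103 (minus), Cox8b at chr7:140900397-140900696 (minus) and Cox8a at chr19:7217567-7217866 (minus). Capitals mark CCGGAAGT or its reverse complement, a motif bound by ETS factors.
Cox7a1: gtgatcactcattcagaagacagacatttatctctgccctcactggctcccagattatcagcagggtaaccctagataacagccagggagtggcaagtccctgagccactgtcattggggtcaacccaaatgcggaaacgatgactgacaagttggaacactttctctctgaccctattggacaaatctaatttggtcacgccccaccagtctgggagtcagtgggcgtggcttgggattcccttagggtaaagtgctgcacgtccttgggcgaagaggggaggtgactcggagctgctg
Cox7a2: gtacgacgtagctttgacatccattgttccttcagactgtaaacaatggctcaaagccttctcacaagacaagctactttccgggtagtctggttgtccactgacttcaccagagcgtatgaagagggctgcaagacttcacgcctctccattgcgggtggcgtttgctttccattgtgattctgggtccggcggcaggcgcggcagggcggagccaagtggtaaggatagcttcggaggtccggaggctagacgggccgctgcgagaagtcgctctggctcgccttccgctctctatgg
Cox8b: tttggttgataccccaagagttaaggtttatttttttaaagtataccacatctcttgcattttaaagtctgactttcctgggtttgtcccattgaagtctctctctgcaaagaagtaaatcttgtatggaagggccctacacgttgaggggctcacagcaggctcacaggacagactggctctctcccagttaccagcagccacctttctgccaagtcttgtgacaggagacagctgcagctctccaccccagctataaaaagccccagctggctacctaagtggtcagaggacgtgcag
Cox8a: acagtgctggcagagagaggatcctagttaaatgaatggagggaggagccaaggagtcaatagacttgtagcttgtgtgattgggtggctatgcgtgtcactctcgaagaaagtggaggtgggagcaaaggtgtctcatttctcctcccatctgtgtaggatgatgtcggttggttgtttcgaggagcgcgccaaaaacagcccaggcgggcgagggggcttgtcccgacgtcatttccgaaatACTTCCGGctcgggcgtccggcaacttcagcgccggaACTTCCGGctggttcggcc
The Cox7a1 and Cox8b windows held 7 and 2 CpG dinucleotides, and those of Cox7a2 and Cox8a held 20 and 19. The ETS motif occurred at 2 positions for Cox8a and in none of the other 3 windows. It was found in 4.31% of the 27025 promoters of the RefSeq table. A loose pattern for the muscle factor MEF2, CTA and TAG with any 4 bases between, was in none of the 4 windows.

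Markers of skeletal muscle moved with these isoforms. Mouse skin is known to include a thin sheet of striated muscle, the panniculus carnosus. All 19 tested genes of a list of 20 were lower in TAp63-/- tumours than in TAp63-/- skin (median log2 change -5.82) and 17 of 19 were lower in WT tumours than in WT skin (median -4.44). The mean log2(FPKM + 1) of the 19 was 2.20 to 4.16 in TAp63-/- tumours, 3.24 and 5.30 in WT tumours, 8.41 to 9.09 in TAp63-/- skin and 8.32 to 8.50 in WT skin, and none was listed at 0 in any library. Their summed level was 108 to 687 FPKM in TAp63-/- tumours, 268 and 1416 FPKM in WT tumours, 15060 to 23200 FPKM in TAp63-/- skin and 14300 to 14910 FPKM in WT skin. Cacna1s, the voltage sensor of muscle calcium release, averaged 0.912 ± 0.451 FPKM in TAp63-/- tumours (SD, n = 4) and 35.9 ± 9.52 FPKM in TAp63-/- skin (SD, n = 3). Of 7 tested genes of slow muscle fibres, 1 was lower (Tnnt1, a slow troponin, -3.03 ± 0.41) and 1 higher (Atp2a2, a calcium pump also found outside muscle, 1.33 ± 0.22) in TAp63-/- mice (SE, adjusted p = 0.000447 and 0.00166), with a median of -0.81. In WT mice 0 were lower and 1, Atp2a2, was higher (1.32 ± 0.27, SE, adjusted p = 0.0110), with a median of -0.26. The summed level of these slow-fibre genes was higher in tumours, at 100.9 to 191 FPKM in TAp63-/- tumours and 107 and 114.5 FPKM in WT tumours, against 62.8 to 84.4 FPKM in TAp63-/- skin and 41.4 to 71.4 FPKM in WT skin, and Atp2a2 alone had 95.9 to 185.5 FPKM in tumours and 34.4 to 55.2 FPKM in skin. The part of muscle in the change of the other subunits was not tested.

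Without Cox6a2, Cox7a1 and Cox8b, 21 of 78 members (26.9%) were lower in TAp63-/- tumours and 8 of 78 (10.3%) in WT tumours, against 14.2% and 6.77% of all genes, with medians of -0.35 and -0.38. The median log2(FPKM + 1) over these 78 was 6.68, 6.36, 6.50 and 6.48 in TAp63-/- tumours, 6.38 and 6.54 in WT tumours, 6.66, 7.03 and 6.85 in TAp63-/- skin and 7.08, 7.14 and 6.77 in WT skin. TAp63-/- tumour replicate 1 was just above TAp63-/- skin replicate 1, and the other 5 tumours were below every skin library. TAp63-/- skin replicate 1 had the highest muscle mean of all libraries and the lowest median of the 78 in skin. Its means of adipocyte, fibroblast, pericyte and endothelial markers were also the highest of all libraries. Adipocyte markers (11 of 13 lower in TAp63-/- tumours, 4 of 13 in WT tumours) and fibroblast markers (6 of 9 and 3 of 9 lower) also moved, and of 10 keratinocyte markers 5 were higher and 2 lower in TAp63-/- tumours and 2 higher and 0 lower in WT tumours. The 5 tested genes of a brown fat list were Dio2, Elovl3, Cidea, Cpt1b and Ppargc1a. Cidea was also counted among the adipocyte markers. Cpt1b, a muscle form, and Ppargc1a were also counted in other lists below, so these counts are not separate. Of these 5 brown fat genes 4 were lower in TAp63-/- tumours (median -1.73) and 1 in WT tumours (median -0.85). Their summed level was 10.8 to 48.8 FPKM in TAp63-/- tumours and 40.4 and 133 FPKM in WT tumours, against 72.5 to 98.3 FPKM in TAp63-/- skin and 64.4 to 78.7 FPKM in WT skin, while Ucp1, which defines brown fat, was listed at 0 in every library. All 8 macrophage markers had negative changes in both genotypes (medians -0.93 and -1.09), of which 1 passed in TAp63-/- tumours and 0 passed in WT tumours. Pericyte markers were lower in 1 of 8 in each genotype, and endothelial markers in 1 of 8 in TAp63-/- tumours and 0 of 8 in WT tumours. The part of these cell types in the result was not tested.

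**Figure D3:**
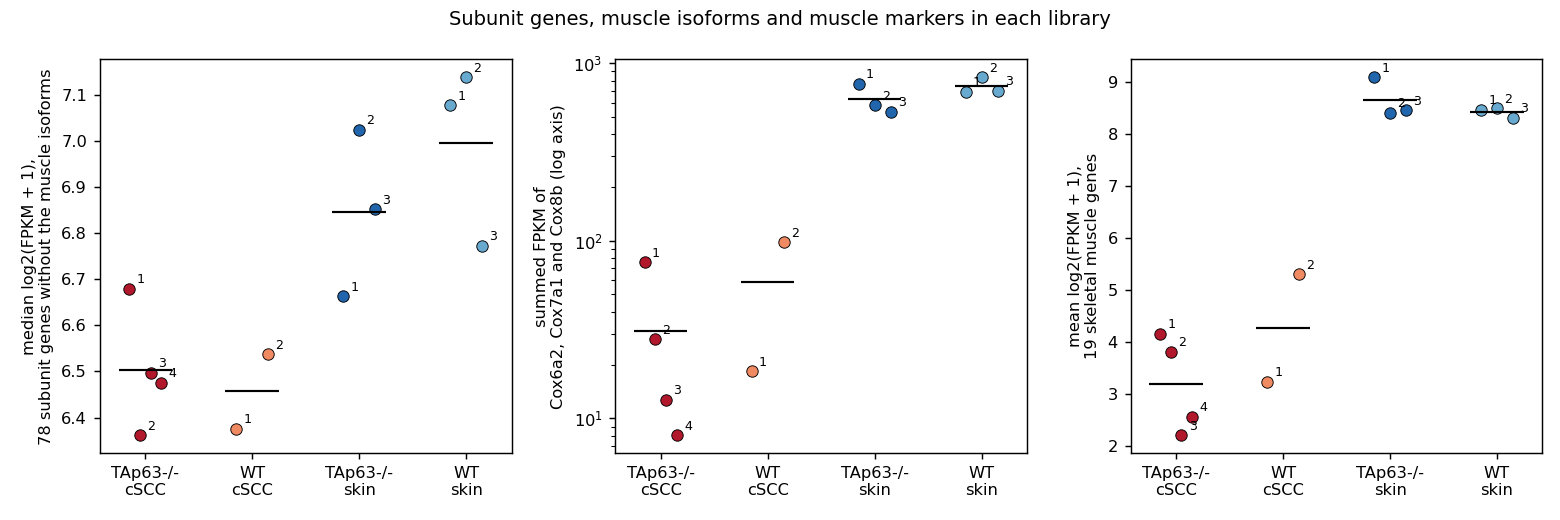
Each point is 1 library, with its replicate number, and bars are group means: the median log2(FPKM + 1) of the 78 other subunit genes (left), the summed FPKM of the 3 muscle isoforms (middle, log axis) and the mean log2(FPKM + 1) of 19 skeletal muscle genes (right). Muscle isoforms and muscle genes separate tumours from skin widely, by 8.01 to 98.4 against 536 to 836 FPKM for the isoforms, while the other subunits differ by less and meet at TAp63-/- tumour replicate 1 and TAp63-/- skin replicate 1.

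Among the other genes of complex IV, Cox7a2l and Cox6b2 were lower in tumours of both genotypes. Cox7a2l, a relative of the COX7A subunits that acts in joining complexes III and IV into supercomplexes, had 131, 127, 131 and 102 FPKM in TAp63-/- tumours and 75.9 and 83.6 FPKM in WT tumours, against 180, 205 and 181 FPKM in TAp63-/- skin and 193, 213 and 204 FPKM in WT skin. WT tumours were lowest, TAp63-/- tumours were next and all skin libraries were above both. The log2 change was -0.62 ± 0.15 in TAp63-/- mice (SE, adjusted p = 0.0116) and -1.34 ± 0.18 in WT mice (SE, adjusted p = 0.00136). The difference between these changes, 0.72 ± 0.23 (SE), had an unadjusted p of 0.0101 but an adjusted p of 1. Cox7a2l minus Cox7a2 differed by -0.70 between 6 tumours and 6 skin libraries, which did not pass (adjusted p = 0.052, exact permutation test over 8 pairs).

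Cox6b2, known as the testis form of subunit VIb, was low throughout. It had 0.979, 2.10, 2.30 and 1.64 FPKM in TAp63-/- tumours and 0.370 and 3.74 FPKM in WT tumours, against 3.77, 7.48 and 7.98 FPKM in TAp63-/- skin and 6.62, 9.57 and 7.04 FPKM in WT skin. The gap was narrow at WT tumour replicate 2 and TAp63-/- skin replicate 1. The log2 change was -1.40 ± 0.39 in TAp63-/- mice (SE, adjusted p = 0.0230) and -1.76 ± 0.47 in WT mice (SE, adjusted p = 0.0350). Without WT tumour replicate 1 the WT value was -0.87 (adjusted p = 0.305). Its widely expressed partner Cox6b1 changed by 0.10 ± 0.28 and -0.11 ± 0.33 (SE, adjusted p = 0.810 and 0.861), and Cox6b2 minus Cox6b1 was lower in tumours by 1.62 on the log2 scale (adjusted p = 0.00433, exact permutation test over 8 pairs).

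Ndufa4l2, a paralogue of Ndufa4 known as a target of hypoxia-inducible factor 1, varied most among TAp63-/- tumours. It had 839, 81.4, 424 and 411 FPKM in TAp63-/- tumours and 205 and 193 FPKM in WT tumours, against 247, 216 and 116 FPKM in TAp63-/- skin and 192, 257 and 263 FPKM in WT skin. TAp63-/- tumours lay both above and below all skin libraries, and WT tumours lay within the skin range. The log2 change in TAp63-/- mice, 0.85 ± 0.62 (SE), did not pass (adjusted p = 0.334), and without TAp63-/- tumour replicate 2 it was 1.52 (adjusted p = 0.00938). Ndufa4 had 1085 FPKM in TAp63-/- tumour replicate 1 and 355 to 690 FPKM in the other libraries, with a change of -0.28 ± 0.33 (SE, adjusted p = 0.562), or -0.64 without that tumour (adjusted p = 0.0319). Cox4i2, the lung and low-oxygen form of subunit IV, ranged from 0.456 to 2.82 FPKM, and tumours and skin overlapped.

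Of 35 complex I genes, 14 were lower in TAp63-/- tumours (40%, against 14.2% of all genes) and 4 in WT tumours (11.4%, against 6.77%), with median changes of -0.49 and -0.46 over the 35. Those lower in TAp63-/- tumours included the core subunits of the NADH-oxidising module Ndufv1, Ndufv2 and Ndufs1, the core subunit of the ubiquinone-binding module Ndufs3, accessory subunits of the matrix arm (Ndufa5, Ndufa6, Ndufa9 and Ndufs4), and Ndufa13, Ndufb3, Ndufb4, Ndufb5 and Ndufb8, accessory subunits of the membrane arm. For 13 of 35 all tumours were below all skin libraries, against 10.9% of all genes.

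Ndufv1, which binds NADH and flavin mononucleotide (ENSMUSG00000037916, chr19:4007497-4012806, minus strand), had 24.3, 26.8, 27.4 and 31.9 FPKM in TAp63-/- tumours and 49.0 and 35.3 FPKM in WT tumours, against 51.8, 44.5 and 46.8 FPKM in TAp63-/- skin and 65.8, 49.5 and 59.9 FPKM in WT skin. TAp63-/- tumours were below all other libraries, while WT tumours reached into the range of TAp63-/- skin. The change was -0.77 ± 0.17 in TAp63-/- mice (SE, adjusted p = 0.00758) and -0.47 ± 0.20 in WT mice (SE, adjusted p = 0.160). Between tumours, the TAp63-/- level was lower by a log2 difference of -0.58 ± 0.24 (SE), with an unadjusted p of 0.0452 and an adjusted p of 1. Ndufv1 kept its call in TAp63-/- mice under all 16 alternatives, sex as a covariate included (-0.94, adjusted p = 0.0365).

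Ndufa5, an accessory subunit of the matrix arm (ENSMUSG00000023089, chr6:24518666-24528013, minus strand), had the most negative value of complex I in TAp63-/- mice. It had 34.5, 14.9, 38.9 and 28.2 FPKM in TAp63-/- tumours and 40.5 and 55.6 FPKM in WT tumours, against 70.3, 61.5 and 45.2 FPKM in TAp63-/- skin and 66.2, 72.9 and 56.2 FPKM in WT skin. TAp63-/- tumours were below all skin libraries, and WT tumour replicate 2 was not. The change was -1.05 ± 0.30 in TAp63-/- mice (SE, adjusted p = 0.0247) and -0.44 ± 0.36 in WT mice (SE, adjusted p = 0.459), and the call was lost without TAp63-/- skin replicate 1 (adjusted p = 0.0987) or 2 (0.0752).

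Ndufs4, an accessory subunit whose loss is known to cause Leigh-like disease in mice, changed by -0.96 ± 0.26 in TAp63-/- mice (SE, adjusted p = 0.0184). It had 17.3, 10.7, 25.2 and 10.7 FPKM in TAp63-/- tumours, against 31.2, 28.4 and 30.9 FPKM in TAp63-/- skin. Ndufb8, an accessory subunit of the membrane arm, changed by -0.90 ± 0.20 (SE, adjusted p = 0.00761). Its values were 93.0, 65.8, 88.7 and 52.4 FPKM in TAp63-/- tumours, against 133, 138 and 141 FPKM in TAp63-/- skin. Neither gene overlapped between these groups, nor did WT tumours overlap with skin. The Ndufs4 call was lost without TAp63-/- skin replicate 1 (adjusted p = 0.0629) or 3 (0.0536).

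In WT mice Ndufa6, Ndufb4 and Ndufb5 had the most negative called changes of complex I. Ndufa6, an accessory subunit of the matrix arm, had 114, 130, 75.9 and 116 FPKM in TAp63-/- tumours and 123 and 93.2 FPKM in WT tumours, against 209, 160 and 236 FPKM in TAp63-/- skin and 238, 203 and 232 FPKM in WT skin. The change was -0.89 ± 0.22 in TAp63-/- mice (SE, adjusted p = 0.0125) and -1.06 ± 0.26 in WT mice (SE, adjusted p = 0.0265). Tumours and skin were separate in both genotypes. Ndufb4 and Ndufb5, accessory subunits of the membrane arm, changed by -0.82 ± 0.20 and -0.79 ± 0.20 in WT mice (SE, adjusted p = 0.0274 and 0.0290) and by -0.53 ± 0.17 and -0.52 ± 0.17 in TAp63-/- mice (SE, adjusted p = 0.0411 and 0.0392). In WT mice the calls of Ndufa6 and Ndufb5 were lost without any 1 of the 5 libraries (adjusted p up to 0.106 and 0.153), and that of Ndufb4 without WT tumour replicate 1 (0.197) or any WT skin library.

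The promoters of Ndufa6 (chr15:82354242-82354541, minus strand) and Ndufb4 (chr16:37654319-37654618, minus strand) are shown because both genes were lower in tumours of both genotypes and their windows hold the motif of nuclear respiratory factor 1 (NRF1), a regulator known to bind many respiratory genes. Capitals mark GCGC, any 1 base and TGCGC, on either strand, in RefSeq sequence on GRCm38.p6.
Ndufa6: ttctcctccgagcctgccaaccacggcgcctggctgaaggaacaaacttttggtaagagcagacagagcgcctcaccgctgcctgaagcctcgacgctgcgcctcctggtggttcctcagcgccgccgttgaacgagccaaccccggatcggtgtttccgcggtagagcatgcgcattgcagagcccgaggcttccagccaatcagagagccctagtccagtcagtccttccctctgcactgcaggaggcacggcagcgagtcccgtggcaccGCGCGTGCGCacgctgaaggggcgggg
Ndufb4: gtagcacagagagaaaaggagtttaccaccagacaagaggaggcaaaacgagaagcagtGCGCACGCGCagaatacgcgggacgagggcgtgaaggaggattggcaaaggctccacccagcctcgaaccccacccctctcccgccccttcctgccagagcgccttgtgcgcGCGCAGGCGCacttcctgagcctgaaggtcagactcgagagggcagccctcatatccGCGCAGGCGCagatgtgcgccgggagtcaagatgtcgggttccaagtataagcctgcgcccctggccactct
Ndufa6 had 1 such motif and Ndufb4 had 3. Of 65 tested members with a promoter in the RefSeq table, 17 held the motif (26.2%), against 5.19% of 27025 promoters. Among members lower in TAp63-/- tumours it was in 6 of 20, and among the other members in 11 of 45. AAGATGGCG, bound by YY1, was in 10.8% of member promoters and 1.64% of all, CAAGGTCA, bound by oestrogen-related receptors, in 6.15% and 1.76%, and the ETS motif in 7.69% and 4.31%. The loose MEF2 pattern was in 1.54% of member promoters and 4.23% of all. Member promoters had a median of 57.3% G and C and 19 CpG dinucleotides, against 52.8% and 7 over the table, and no allowance was made for base composition. Both strands were searched for every motif. A match is a description of letters and not a binding site.

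Complex II oxidises succinate and is also an enzyme of the tricarboxylic acid cycle. Of its 4 genes 2 were lower in TAp63-/- tumours (50%, against 14.2% of all genes) and 1 in WT tumours (25%, against 6.77%). The catalytic subunits Sdha and Sdhb were lower in TAp63-/- tumours, but Sdhb alone passed in WT tumours. The membrane anchors passed in neither genotype. Sdha, the flavoprotein that oxidises succinate (ENSMUSG00000021577, chr13:74322254-74350280, minus strand), had 68.5, 79.5, 66.6 and 132 FPKM in TAp63-/- tumours and 157 and 84.6 FPKM in WT tumours, against 300.2, 152 and 204 FPKM in TAp63-/- skin and 215, 191 and 268 FPKM in WT skin. TAp63-/- tumours were below all skin libraries, while WT tumour replicate 1 was just above TAp63-/- skin replicate 2. The change was -1.33 ± 0.32 in TAp63-/- mice (SE, adjusted p = 0.0112) and -0.94 ± 0.38 in WT mice (SE, adjusted p = 0.133). Without TAp63-/- skin replicate 1 the TAp63-/- value was -1.07 (adjusted p = 0.0558).

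Sdhb, the iron-sulfur subunit (ENSMUSG00000009863, chr4:140961203-140979193, plus strand), had 40.9, 31.2, 44.0 and 35.3 FPKM in TAp63-/- tumours and 39.1 and 35.6 FPKM in WT tumours, against 54.1, 68.3 and 70.0 FPKM in TAp63-/- skin and 83.8, 77.2 and 57.8 FPKM in WT skin. All tumours were below all skin libraries. The change was -0.75 ± 0.19 in TAp63-/- mice (SE, adjusted p = 0.0134) and -0.93 ± 0.22 in WT mice (SE, adjusted p = 0.0226). The call was lost without TAp63-/- skin replicate 2 or 3 (adjusted p = 0.0522 and 0.0509) and, in WT mice, without either tumour (0.0989 and 0.0735) or WT skin replicate 1 or 2 (0.0772 and 0.0814). The anchors Sdhc and Sdhd changed by -0.37 ± 0.28 and 0.09 ± 0.17 in TAp63-/- mice (SE, adjusted p = 0.363 and 0.707) and by -0.01 ± 0.34 and -0.18 ± 0.20 in WT mice (SE, adjusted p = 0.991 and 0.589).

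Complex III had no called member in either genotype, against 14.2% of all genes lower in TAp63-/- mice and 6.77% in WT mice. Among only 8 genes, 0 calls is near those shares. All 8 changes were negative in both genotypes. Their medians were -0.24 in TAp63-/- mice and -0.33 in WT mice. Uqcrc2, a core protein of the complex, had 95.3, 60.4, 85.2 and 62.5 FPKM in TAp63-/- tumours and 69.3 and 57.8 FPKM in WT tumours, against 91.8, 90.8 and 97.8 FPKM in TAp63-/- skin and 78.8, 81.9 and 76.8 FPKM in WT skin. TAp63-/- tumour replicates 1 and 3 lay within the skin range and the other 4 tumours lay below it. Its change of -0.32 ± 0.18 in TAp63-/- mice (SE, adjusted p = 0.208) had the smallest p of the complex there, as did that of Uqcr10, a small subunit, in WT mice (-0.35 ± 0.20, SE, adjusted p = 0.275). Uqcrfs1, the Rieske iron-sulfur protein, changed by -0.39 ± 0.26 and -0.23 ± 0.31 (SE, adjusted p = 0.291 and 0.671). For 0 of 8 genes were all tumours below all skin libraries, against 10.9% of all genes, a share that 0 of 8 is also near.

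Of 17 tested genes grouped with ATP synthase, Atp5sl included, 3 were lower in TAp63-/- tumours (17.6%, against 14.2% of all genes). In WT tumours 1 was lower (5.88%, against 6.77%), and both shares were near those of all genes. Atp5c1, the gamma subunit of the rotating central stalk (ENSMUSG00000025781, chr2:10056016-10080510, minus strand), had 93.6, 93.7, 129 and 118 FPKM in TAp63-/- tumours and 116 and 101 FPKM in WT tumours, against 187, 211 and 203 FPKM in TAp63-/- skin and 173, 189 and 181 FPKM in WT skin. The highest tumour stayed well below the lowest skin library. The change was -0.89 ± 0.16 in TAp63-/- mice (SE, adjusted p = 0.00248) and -0.73 ± 0.19 in WT mice (SE, adjusted p = 0.0342). In TAp63-/- mice the call held under all 16 alternatives, and in WT mice it was lost without any 1 of the 5 libraries (adjusted p up to 0.111).

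Atp5a1, the alpha subunit of the catalytic head, changed by -0.50 ± 0.17 in TAp63-/- mice (SE, adjusted p = 0.0452) and -0.59 ± 0.20 in WT mice (SE, adjusted p = 0.0774). It had 216, 148, 199.8 and 216 FPKM in TAp63-/- tumours and 166 and 179 FPKM in WT tumours, against 277, 261 and 282 FPKM in TAp63-/- skin and 258 to 262 FPKM in WT skin. All tumours were below all skin libraries, yet the TAp63-/- call was lost without 6 of 7 libraries in turn (adjusted p up to 0.119). Atp5b, the catalytic beta subunit and the most abundant member, varied widely, with 372 to 1168 FPKM in TAp63-/- tumours, 896 and 1725 FPKM in WT tumours, 1063 to 1493 FPKM in TAp63-/- skin and 1130 to 2103 FPKM in WT skin. Its changes of -0.70 ± 0.40 and -0.36 ± 0.48 did not pass (SE, adjusted p = 0.216 and 0.665).

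The c subunit of the membrane rotor is encoded by 3 genes, Atp5g1, Atp5g2 and Atp5g3, whose products have the same mature form and different import sequences. Atp5g2 (ENSMUSG00000062683, chr15:102663014-102667749, minus strand) had 198, 132, 252 and 182 FPKM in TAp63-/- tumours and 294 and 198 FPKM in WT tumours, against 334, 293 and 405 FPKM in TAp63-/- skin and 342, 361 and 370.1 FPKM in WT skin. TAp63-/- tumours were below all skin libraries and WT tumour replicate 1 was level with the lowest. The change was -0.87 ± 0.23 in TAp63-/- mice (SE, adjusted p = 0.0196) and -0.57 ± 0.28 in WT mice (SE, adjusted p = 0.215), and the call was lost without TAp63-/- skin replicate 1 or 3 (adjusted p = 0.0576 and 0.0748). Atp5g3 changed by 0.35 ± 0.30 and -0.18 ± 0.35 (SE, adjusted p = 0.400 and 0.789), and Atp5g1 by -0.45 ± 0.22 and -0.05 ± 0.27 (SE, adjusted p = 0.157 and 0.921). Atp5g2 minus Atp5g3 was lower in tumours by 0.94 on the log2 scale (adjusted p = 0.0346, exact permutation test over 8 pairs), a call that was lost when single libraries were left out, and Atp5g1 minus Atp5g3 differed by -0.48 (adjusted p = 0.158).

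**Figure D4:**
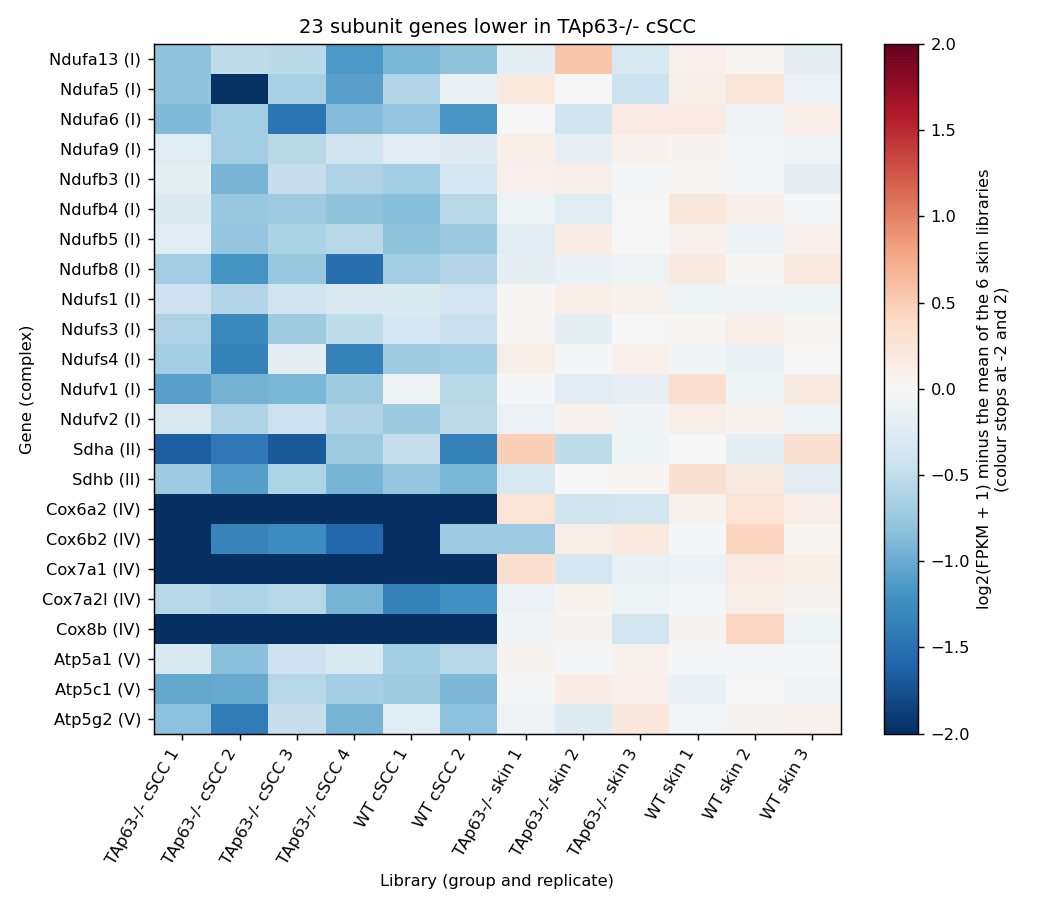
Subunit genes lower in TAp63-/- tumours than in TAp63-/- skin (23 of the 24), 1 row each, as log2(FPKM + 1) minus the mean of the 6 skin libraries; columns are libraries, and colours stop at -2 and 2. The 6 tumour columns are mostly blue, darkest for Cox6a2, Cox7a1 and Cox8b. They are nearly white for Ndufv1 in WT tumour replicate 1 and Ndufa5 in WT tumour replicate 2. The 6 skin columns are mostly pale. They are bluer for Cox6b2 in TAp63-/- skin replicate 1, Sdha in TAp63-/- skin replicate 2 and Ndufa5 in TAp63-/- skin replicate 3. The rows were chosen by this comparison.

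Loss of TAp63 was not accompanied by a called change of any subunit gene within either tissue. In TAp63-/- skin against WT skin 0 of 81 members passed limma's test, against 0.0203% of all genes. An unadjusted p below 0.05 was found for 6 of 81 members and for 738 of all 14752 genes, shares near each other. Ndufs5, an accessory subunit of complex I, had 47.8, 62.3 and 61.8 FPKM in TAp63-/- skin, against 30.7, 37.4 and 31.1 FPKM in WT skin. The ranges were separate, with a log2 change of 0.77 ± 0.15 (SE, unadjusted p = 0.00214, adjusted p = 0.831). Ndufc1, a complex I subunit named after its values were seen, had 47.8, 46.0 and 50.1 FPKM in TAp63-/- skin, against 76.2, 85.7 and 64.5 FPKM in WT skin (-0.63 ± 0.13, SE, unadjusted p = 0.00275, adjusted p = 0.886). Cox8a and Uqcr10 were also separate in skin, with log2 changes of -0.50 ± 0.18 and -0.38 ± 0.14 (SE, adjusted p = 0.922 for both). How many of all genes were separate in skin was not counted, so separate ranges cannot be called particular to these members.

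In TAp63-/- tumours against WT tumours 0 of 81 members passed limma's test, against 0% of all genes. The 2 members with an unadjusted p below 0.05 were Cox7a2l (0.61 ± 0.22) and Ndufv1. Among all 14752 genes 419 had such a p, a share near that of the members. With 2 WT tumours the comparison was coarse. Uqcrh, the hinge protein of complex III, had 374, 290 and 695 FPKM in TAp63-/- tumour replicates 1 to 3 and 265 FPKM in replicate 4, against 181 and 279 FPKM in WT tumours, a change of 0.74 ± 0.45 (SE, unadjusted p = 0.144). The tumour-skin difference itself was compared between genotypes, and 0 of 81 members passed limma's test, against 0.0271% of all genes. An unadjusted p below 0.05 was found for 1 member, Cox7a2l, and for 444 of all 14752 genes. The larger number of calls in TAp63-/- mice therefore does not show that the members differed between genotypes. Ndufa1, a small complex I subunit, had changes of -0.11 ± 0.23 in TAp63-/- mice and -0.78 ± 0.27 in WT mice (SE, adjusted p = 0.752 and 0.0896), a difference of 0.67 ± 0.35 (SE, unadjusted p = 0.0861).

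Other mitochondrial genes differed in how far they moved. Among all genes tested, 14.2% were lower and 13% higher in TAp63-/- mice, and 6.77% and 4.66% in WT mice. The counts of the lists that follow are to be set beside these shares. In the tricarboxylic acid cycle 8 of 14 genes were lower in TAp63-/- tumours than in TAp63-/- skin (median -0.55) and 0 of 14 passed in WT tumours against WT skin (median -0.39). Fh1, the fumarase gene, averaged 11.0 ± 1.12 FPKM in TAp63-/- tumours (SD, n = 4) and 24.1 ± 6.20 FPKM in TAp63-/- skin (SD, n = 3), with a log2 change of -1.04 ± 0.18 (SE, adjusted p = 0.00208). Sucla2, a succinate-CoA ligase subunit, and Cs, citrate synthase, changed by -0.89 ± 0.16 and -0.77 ± 0.17 (SE, adjusted p = 0.0027 and 0.00735). In fatty acid oxidation 5 of 12 were lower in TAp63-/- tumours and 3 of 12 in WT tumours (median -0.43 in both). Cpt1b, the muscle form of the carnitine palmitoyltransferase that admits fatty acids to mitochondria, changed by -2.63 ± 0.32 in TAp63-/- mice (SE, adjusted p = 0.000224), and Acadm, an acyl-CoA dehydrogenase, by -1.76 ± 0.24 (SE, adjusted p = 0.00044).

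Of 6 tested electron carriers outside the naming rule, such as Etfa and Etfb of the electron transfer flavoprotein, 0 passed in either genotype, though 6 changes were negative in TAp63-/- mice and 5 in WT mice (medians -0.36 and -0.27).

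Genes that build the complexes had medians nearer to that of all genes. For complex I assembly 0 of 14 passed in either genotype (medians 0.13 in TAp63-/- mice and -0.16 in WT mice). Of 32 assembly factors of complexes II to V, 3 were lower and 2 higher in TAp63-/- mice and 1 was lower and 1 higher in WT mice. Sco2, a copper chaperone of complex IV, averaged 3.89 ± 0.877 FPKM in TAp63-/- tumours (SD, n = 4) and 1.10 ± 0.366 FPKM in TAp63-/- skin (SD, n = 3), with a log2 change of 1.22 ± 0.22 (SE, adjusted p = 0.00236). Of 74 mitochondrial ribosome genes 2 were lower and 1 was higher in TAp63-/- mice (median 0.15), and 0 were lower and 1 was higher in WT mice (median 0.10). Of 13 genes of mitochondrial import and the inner membrane 1 was lower in TAp63-/- mice (median 0.02) and 0 passed in WT mice (median -0.07).

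Of 13 genes of coenzyme Q synthesis 2 were lower and 1 was higher in each genotype. Lower calls were 15.4% of this list, against 14.2% of all genes in TAp63-/- mice and 6.77% in WT mice. Adck3, a kinase-like protein required for coenzyme Q synthesis, averaged 10.3 ± 7.39 FPKM in TAp63-/- tumours (SD, n = 4) and 121 ± 40.3 FPKM in TAp63-/- skin (SD, n = 3), with a log2 change of -3.60 ± 0.47 (SE, adjusted p = 0.000316). Slc25a4, the adenine nucleotide carrier of heart and muscle, was also lower, with log2 changes of -2.04 ± 0.25 in TAp63-/- mice and -1.89 ± 0.30 in WT mice (SE, adjusted p = 0.000224 and 0.00346). Of 8 tested adenine nucleotide and phosphate carriers, Slc25a4 included, 3 were lower in TAp63-/- mice and 2 in WT mice (medians -0.16 and -0.23). Of 13 subunits encoded by the mitochondrial genome 0 passed in either genotype (medians -0.27 and -0.36), but some were listed at 0 as described above. Of 17 regulators of mitochondrial genes 4 were higher and 3 lower in TAp63-/- mice, and 3 were higher and 0 lower in WT mice. Hif1a, the oxygen-regulated subunit of hypoxia-inducible factor 1, had 462, 78.8, 413 and 257 FPKM in TAp63-/- tumours and 120.3 and 156 FPKM in WT tumours, against 29.6, 39.8 and 37.0 FPKM in TAp63-/- skin and 31.9, 33.8 and 28.2 FPKM in WT skin. All tumours were above all skin libraries (2.79 ± 0.49 and 2.10 ± 0.59, SE, adjusted p = 0.00208 and 0.0423). Ppargc1a, the coactivator PGC-1 alpha, was lower in TAp63-/- mice (-1.52 ± 0.36, SE, adjusted p = 0.0112).

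**Figure D5:**
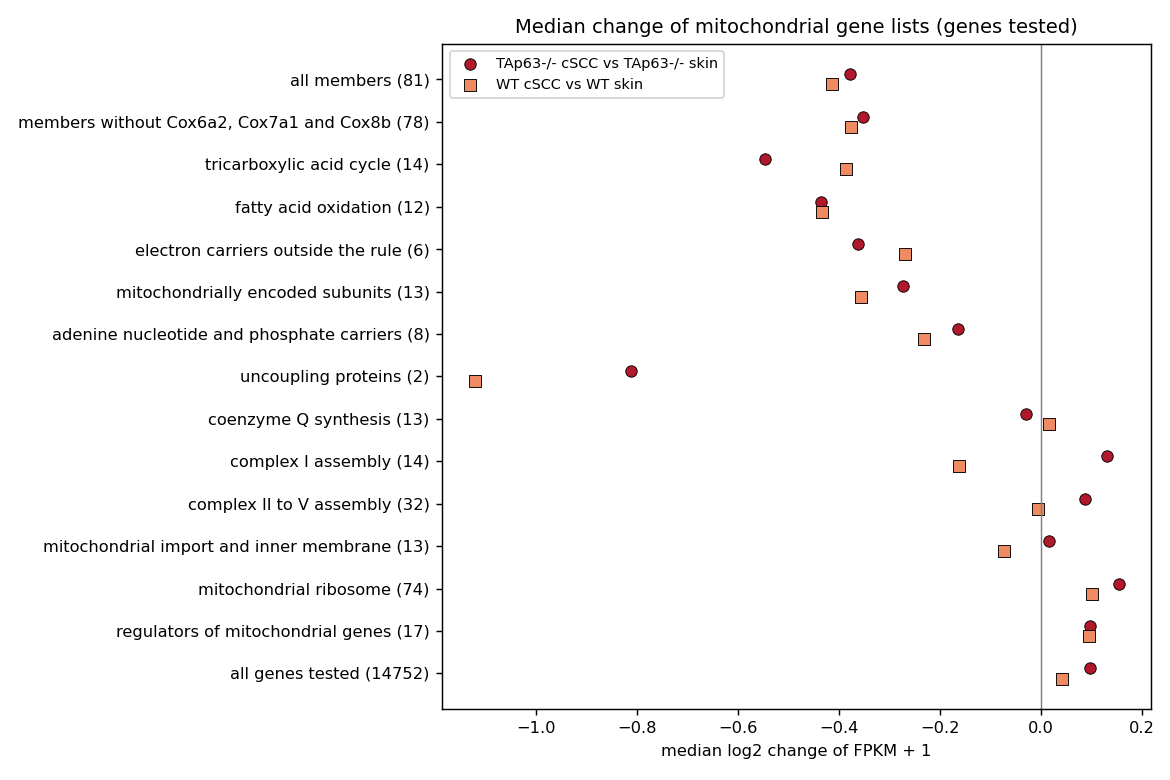
Median log2 change of FPKM + 1 for the subunit genes, 12 other mitochondrial gene lists and all genes tested, with the number of genes tested in brackets. Circles show TAp63-/- tumours against TAp63-/- skin and squares WT tumours against WT skin; the subunits, the tricarboxylic acid cycle, fatty acid oxidation, electron carriers and mitochondrially encoded subunits lie between -0.55 and -0.27, nucleotide and phosphate carriers at -0.16 and -0.23, 2 uncoupling proteins at -0.81 and -1.12, and the other lists between -0.16 and 0.15.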

How the data were processed

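Total RNA of 12 libraries was sequenced with an Illumina TruSeq kit, per the labels. TopHat2 2.0, Cufflinks 2.0 and build mm10 are named in the submitters' processing notes. Deposited values are taken as FPKM computed by the authors, a unit inferred from Cufflinks. Nearly all sorted values of 1 FPKM or more (99.98% to 100%) lay within 1% of values common to the 12 columns, so quantile normalization before deposit is inferred. Depth is unknown, and no counting interval is given. The table held 0 columns of other samples. Values of 272 symbols with more than 1 entry were summed, and no member was among them. Atp5l also has 1 pseudogene entry under its name, so its value is uncertain.

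The 14752 genes that reached 1 FPKM in 2 or more of 12 libraries were fitted as log2(FPKM + 1) by limma 3.58.1 (R 4.3.3) with trended variance. Benjamini-Hochberg adjustment ran over all of them, and a gene was called below 0.05. Every adjusted p of a gene is limma's, two-sided, and fold changes on this scale understate those of low genes. Genotype comparisons within a tissue used the 6 libraries of that tissue, and the other comparisons used all 12. Within-pair differences of isoforms were compared with two-sided exact permutation tests.

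Coordinates are those of the deposited table on mm10, with the start counted from 1, and for 49 of 84 members they equal GENCODE M21. Promoters are RefSeq's on GRCm38.p6, and 65 tested members had one. The members and 22 gene lists (321 entries, 320 in the table, 14 of them under another name, and 311 tested) were chosen with earlier results of these data known. Genes named were those of the isoform sets and, for each comparison and complex, the 3 called members with the largest change in each direction or, with none called, the 1 with the smallest p. Of other lists the 3 genes with the smallest p were eligible. Other members given as examples of a role were chosen after their values were seen. Alternatives covered the pseudocount, the filter, rescaling, the variance model, weights, the libraries in the fit, sex and each library left out. For 1 called member no result of its own is reported here, though counts and medians include it.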

Additional observations from a re-analysis of the deposited data

Results flagged for a closer look

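In TAp63-/- tumours, the 1 group large enough to be examined, 42 sets of values were searched for a sample far from the others, and 3 were found where chance alone flags about 1 in 20. Ndufb4 stood at 59.1 FPKM in TAp63-/- tumour replicate 1, above the other 3 tumours, which had up to 42.7 FPKM. Ndufa1 stood at 172 FPKM in the same tumour, above the next value of 124 FPKM. Cox7a2l stood at 102 FPKM in TAp63-/- tumour replicate 4, below the other 3, which had 127 to 131 FPKM. TAp63-/- tumour replicate 1 was the male tumour and had the highest median of the subunit genes among tumours, and the part of either in these values was not tested.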

How the results depend on the processing

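The number of subunit genes called in TAp63-/- tumours against skin was 24, and became 11 with only the compared libraries in the fit, 5 with sex as a covariate and 11 to 28 with 1 library left out. In WT mice it was 11, and became 0 with sex as a covariate and 1 to 10 with 1 library left out. Over the other alternatives these counts were 23 to 31 and 10 to 14. Within skin, between tumours and for the difference of differences it was 0 under every alternative run. Sex was nearly joined to tissue, with 1 male tumour. The number of all genes changed was 4017 in TAp63-/- mice (1939 with sex as a covariate, 2432 to 4446 with 1 library left out) and 1687 in WT mice (255 and 464 to 1907). In skin it was 3 (5 with a pseudocount of 0.1, 3 to 8 with 1 library left out). Between tumours it was 0 (9 with no filter, 1 with all 12 libraries in the fit, 0 to 11 with 1 left out), and for the difference of differences 4 (1 to 15). Atp5g2 minus Atp5g3 ranged from -1.14 to -0.82 and Cox7a2l minus Cox7a2 from -0.93 to -0.59 with 1 library left out. Of the changes of named members under the alternatives 1503 kept their side of the threshold, 76 lost a call, 2 gained one and 0 reversed. The causes were not tested. No paired analysis was possible because the labels give no replicate number shared between groups. Unknown depth and 2 WT tumours limit what could be detected.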

Other observations

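Uncoupling proteins and creatine kinase are further mitochondrial genes of energy use. Ucp3, the uncoupling protein of muscle, averaged 0.742 ± 0.288 FPKM in TAp63-/- tumours (SD, n = 4) and 5.04 ± 4.03 FPKM in TAp63-/- skin (SD, n = 3), with a log2 change of -1.59 ± 0.38 (SE, adjusted p = 0.0117). Ucp2, an uncoupling protein found in many tissues, averaged 183 ± 81.5 FPKM in TAp63-/- tumours and 178 ± 79.9 FPKM in TAp63-/- skin and did not pass (adjusted p = 0.966). Ckmt2, the mitochondrial creatine kinase of striated muscle, changed by -4.01 ± 0.65 in TAp63-/- mice and -3.10 ± 0.78 in WT mice (SE, adjusted p = 0.00128 and 0.0282).

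Pdss1, which makes the isoprenoid tail of coenzyme Q, was higher in tumours of both genotypes, at 7.36 ± 1.18 FPKM in TAp63-/- tumours (SD, n = 4) and 4.12 ± 1.17 FPKM in TAp63-/- skin (SD, n = 3), a log2 change of 0.72 ± 0.19 (SE, adjusted p = 0.0179). The change in WT mice was 2.24 ± 0.23 (SE, adjusted p = 0.000393), where both tumours had the same value of 19.5 FPKM. Ppard, a nuclear receptor that controls fatty acid oxidation genes, changed by 1.63 ± 0.24 and 1.71 ± 0.29 (SE, adjusted p = 0.00066 and 0.00454). Of 9 neutrophil markers 6 were tested, and Ngp, Camp and Ltf did not reach the filter. Of the 6, 5 were higher in TAp63-/- tumours and 3 in WT tumours. The part of neutrophils in the lower subunit levels was not tested.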
